A study of Homo sapiens with 8 samples.

Results

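The transcripts examined encode 9 core proteins of stress granules, and were followed through 4 lists of RNA immunoprecipitation peaks. They are G3BP1, CAPRIN1, ATXN2, ATXN2L, FMR1, FXR1, PRRC2C, YBX3 and DDX6. All peaks listed under these 9 gene names were taken, and peaks of a gene that shared at least 1 exon base on the same strand were joined into a site, so that each site could be followed by its position. This gave 82 peaks at 25 sites, of 42083 peaks at 14518 sites in 6520 genes. The peaks came from HepG2, a human liver cancer line, in which every group carried Cas9 and a lentiviral 3 x Flag-tagged QKI7, an isoform of the RNA-binding protein Quaking. The 8 samples formed 4 groups of 2: input RNA, and RNA brought down from UV cross-linked cells with a Flag antibody (IP), each from cells with the guide sgNS, taken as the control, or with the guide sgMETTL1, which targets the RNA 7-methylguanosine methyltransferase METTL1. Only GFP-positive cells were used, and the labels give neither clones nor the culture behind each replicate, so the spread that p-values measure here is that of these samples and may be technical. The bait was an added transgene, so these peaks describe the tagged QKI7 made from it. Its level beside the cell's own QKI was not measured here.

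Stress granules are condensates of messenger RNA and protein that form when translation initiation stops and that dissolve when it resumes. G3BP1 and its partner CAPRIN1 nucleate them, the ataxin-2 proteins and the FMRP family enter with the RNA, and the helicase DDX6 links them to processing bodies, where mRNAs are stored or decapped. The question that the series put was whether METTL1 alters the binding of QKI7 to its target RNAs. For these genes the question concerns the mRNA that encodes each granule protein, since the assay recovers RNA and does not measure the granules themselves.

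Every IP sample was paired with an input, which gave 2 peak lists per guide, with 22 and 23 peaks of the 9 transcripts in the sgNS lists and 19 and 18 in the sgMETTL1 lists. The fold (IP over input) and the p-value given for any peak were set by the authors, no read counts are listed, and the depth behind a value is unknown. Whether a fold means the same in each list is not stated, so folds were compared by rank within a list. METTL1 and WDR4, its partner, had no peak in any list, so the lists hold no check of the knockout. QKI, the gene of the bait, was in all 4 lists. Its strongest fold was 78.0 and 68.0 times input in the sgNS lists, and 109 and 107 times in the sgMETTL1 lists. Of 11 hepatocyte markers, 5 had a peak in all 4 lists (APOB, SERPINA1, FGB, HNF4A and FOXA2), and AFP, APOA1, APOA2 and TTR had none, which bears on pull-down and not on expression. FGB (21.5 and 20.0 against 22.1 and 17.2) and SERPINA1 (18.7 and 22.0 against 17.0 and 15.2) ranked highest, and ALB was in replicate 1 of sgNS only. Folds of QKI and of the markers are the strongest of a gene in each list, so they may come from different sites. No peak of the 9 transcripts shared exon bases with a peak under another gene's name in the same list and on the same strand.

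All 9 transcripts had a peak in all 4 lists, whereas 63.7% of the genes with any peak did. They were picked with earlier results of these data known, so this count describes them and tests nothing. By site, 16 of 25 were in all 4 lists, against 41.3% of all sites. Another 3 sites, all in PRRC2C, were in 3 lists, and 5 were in a single list. The remaining site, at the 3' end of FXR1, was in both lists of sgNS and in none of sgMETTL1, a pattern held by 7.42% of all sites. No site of these transcripts was in both sgMETTL1 lists only, which 1.21% of all sites were.

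**Figure D1:**
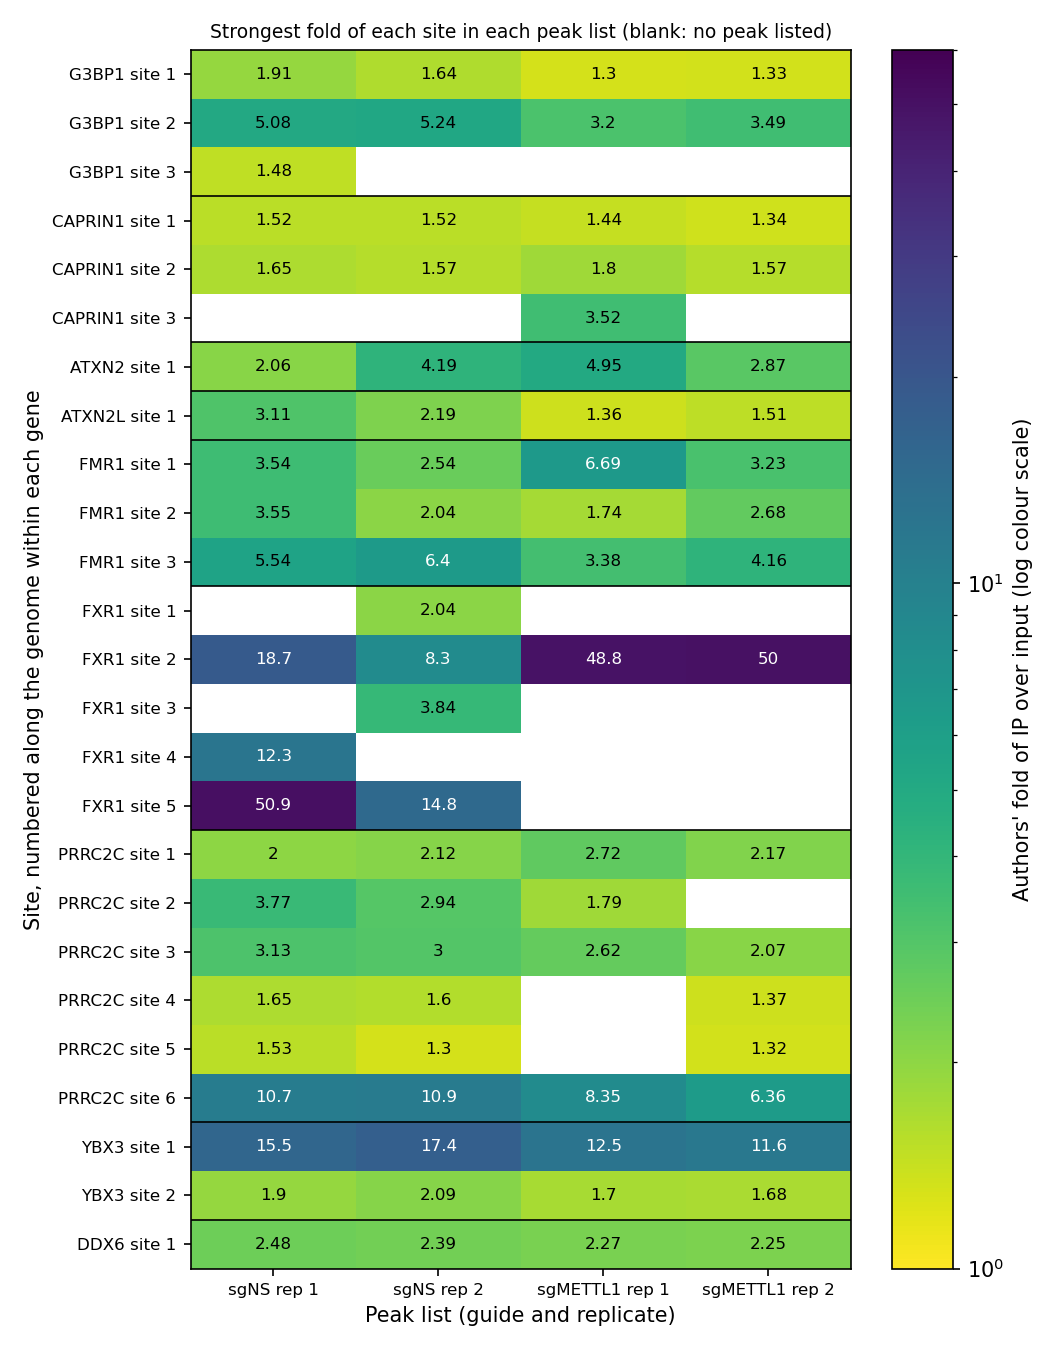
Rows are the 25 sites of the 9 transcripts, numbered along the genome within each gene, and columns are the 4 peak lists. The number and colour in a tile are the strongest fold of IP over input (log colour scale), and a blank tile has no peak. FXR1 site 2 is at 18.7 and 8.3 under sgNS and at 48.8 and 50 under sgMETTL1, and FXR1 site 5 is blank in both sgMETTL1 lists.

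Most of these peaks were modest by fold. At the 16 sites of all 4 lists, the median fold was 3.12 and 2.46 in the sgNS lists and 2.67 and 2.46 in the sgMETTL1 lists, where all 6003 such sites had medians of 6.74, 6.34, 5.59 and 5.30. In percentiles of the fold within a list, where 0 is the strongest, the median of the 16 sites was 81.9 and 89.1 under sgNS and 83.7 and 84.3 under sgMETTL1. By p-value the same sites stood near the middle of the lists, at median percentiles of 55.5, 56.4, 49.8 and 56.7. Centres of 15 of the 25 sites lay within 3000 bases of the 3' end of the RefSeq gene, against 66.1% of the 14454 sites that could be placed. The number of sites ran from 1 each in ATXN2, ATXN2L and DDX6 to 6 in PRRC2C, beside a median of 2 over all genes.

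G3BP1 encodes the RNA-binding protein whose dimers nucleate stress granules. It held 3 sites on the plus strand of chromosome 5 (GRCh38), between 7491 and 8475 bases upstream of the RefSeq 3' end of the gene. Its main site, site 2 (151804728 to 151805056), was listed at a fold of 5.08 and 5.24 under sgNS, against 3.20 and 3.49 under sgMETTL1. Both sgMETTL1 folds lay under both sgNS folds, and the mean fold under sgNS was 1.54 times that under sgMETTL1. The -log10 p was likewise lower in both sgMETTL1 lists, at 32.9 and 38.7 against 127 and 128 under sgNS. Of all sites in all 4 lists, 38.7% had both sgMETTL1 folds lower, and 76.2% had both -log10 p values lower. Its percentile of the fold was 62.1 and 58.0 under sgNS and 75.6 and 68.7 under sgMETTL1, a rank score lower by 0.34 (SE 0.19, limma's adjusted p = 0.565). The rank score is the within-list rank among sites of all 4 lists converted to a normal deviate.

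The weaker site 1 of G3BP1 (151803982 to 151804310) stood at folds of 1.91 and 1.64 (sgNS) and of 1.30 and 1.33 (sgMETTL1). It covered 329 bases in both sgNS lists, but 90 and 150 bases in the sgMETTL1 lists, and those 2 shorter peaks met in 1 base only (151804131). The site lay near the weakest folds of every list, at percentiles of 96.5 and 98.2 under sgNS and 99.8 and 99.7 under sgMETTL1. The score difference was -0.88 (SE 0.21, limma's adjusted p = 0.396). With 50% reciprocal overlap the sgNS peaks at site 1 matched each other only. Each sgMETTL1 peak then stood alone, so no score difference could be computed. Site 3 (151805115 to 151805294) appeared in replicate 1 of sgNS only, at 1.48-fold.

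CAPRIN1 encodes the cytoplasmic partner that binds G3BP1 and supports granule assembly. Its 2 sites of all 4 lists, on the plus strand of chromosome 11, were weak in every list, with folds of 1.34 to 1.80. Site 1 (34099800 to 34099979) was listed at 1.52-fold in both sgNS lists and at 1.44-fold and 1.34-fold under sgMETTL1. Its block of 180 bases had the same borders in both sgNS lists and in replicate 1 of sgMETTL1. Site 2 (34100786 to 34101145) was listed at 1.65 and 1.57 times input in the sgNS lists, and at 1.80 and 1.57 times in the sgMETTL1 lists, so the folds of the guides met. Its rank nevertheless stood higher under sgMETTL1 in both lists, as at 20.3% of all sites in all 4 lists. Its percentiles were 95.6 and 97.6 under sgMETTL1 against 98.7 and 98.8 under sgNS. The scores differed by 0.40 (SE 0.20, limma's adjusted p = 0.524). A narrow peak of 91 bases (34101354 to 34101444) appeared in replicate 1 of sgMETTL1 alone, at 3.52-fold with a -log10 p of 3.03.

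The ataxin-2 paralogs each held a single site at the very 3' end of the gene. ATXN2, a polyglutamine disease gene whose product binds poly(A)-binding protein, had its site on the minus strand of chromosome 12 (111452274 to 111452813), 60 bases from the RefSeq 3' end. It was listed at a fold of 2.06 and 4.19 under sgNS, against 4.95 and 2.87 under sgMETTL1. The guides overlapped, and the replicates of each differed more than the guides did (score difference 0.60, SE 0.45, limma's adjusted p = 0.665). It was the 1 site of the 16 that covered more bases in both sgMETTL1 lists, with 450 and 510 against 300 and 390. Among all sites in all 4 lists, 4% did so.

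ATXN2L, the ataxin-2-like gene, was listed at folds of 3.11 and 2.19 (sgNS) and of 1.36 and 1.51 (sgMETTL1) (chromosome 16, plus strand, 28836879 to 28837237). Both sgMETTL1 lists stood below both sgNS lists by fold, by -log10 p (3.43 and 6.28 against 13.7 and 18.4) and by bases covered (90 and 120 against 329 and 359). Of all 6003 sites in all 4 lists, 38.7%, 76.2% and 49.1% did so by these measures. Its percentiles were 82.0 and 92.4 against 99.6 and 98.3. The score difference of -1.23 (SE 0.30) was the most negative of the 16 sites, and limma's adjusted p was 0.396. The sgMETTL1 values lie near the smallest fold in those lists, which is 1.11 in each. With 50% reciprocal overlap the peaks of the guides were separate sites. Whether the 2 paralogs differ from each other in their response was not tested.

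FMR1 encodes FMRP, the translational repressor silenced in fragile X syndrome, and FXR1 its paralog. The 3 sites of FMR1 lay side by side on the plus strand of chromosome X, all 3 in all 4 lists, and the last ended 88 bases from the RefSeq 3' end. Site 3, nearest that end (147950677 to 147951037), was listed at 5.54 and 6.40 times input in the sgNS lists, and at 3.38 and 4.16 times in the sgMETTL1 lists. Both sgMETTL1 lists were lower, also in -log10 p, at 13.0 and 12.9 against 42.6 and 50.1. Of all sites in all 4 lists, 38.7% were so by fold and 76.2% by -log10 p. Site 1 (147949507 to 147950257) was listed at a fold of 3.54 and 2.54 under sgNS, against 6.69 and 3.23 under sgMETTL1, and here the folds of the guides overlapped. Its ranks did not, at percentiles of 77.05 and 88.09 under sgNS against 43.47 and 72.46 under sgMETTL1. Both sgMETTL1 ranks were higher at 20.3% of all sites in all 4 lists. Site 2 (147950347 to 147950587) had 3.55-fold and 2.04-fold against 1.74-fold and 2.68-fold.

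Within the FMR1 transcript the order of the sites by fold varied, also between the lists of sgNS. Site 3 held the strongest fold in both sgNS lists and in replicate 2 of sgMETTL1, and site 1 in replicate 1 of sgMETTL1. The score differences of sites 1, 2 and 3 were 0.74 (SE 0.33), -0.19 (SE 0.43) and -0.34 (SE 0.22), with adjusted p-values from limma of 0.499, 0.899 and 0.607. None of the 3 was called.

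FXR1 held 5 sites on the plus strand of chromosome 3, of which only site 2 was in all 4 lists. Site 2 (180977123 to 180977572), 5181 bases from the RefSeq 3' end, was listed at folds of 18.7 and 8.30 (sgNS) and of 48.8 and 50 (sgMETTL1). Both sgMETTL1 folds lay above both sgNS folds, at percentiles of 4.64 and 3.51 against 19.0 and 39.2. By fold 9.9% of all sites in all 4 lists did so, and by rank 20.3%. The score difference was 1.17 (SE 0.26), the most positive of the 16 sites, with limma's adjusted p at 0.396. The listed evidence did not run with the fold, since the -log10 p was 36.2 and 15.3 under sgNS and 13.0 and 11.1 under sgMETTL1. Ranked by p in place of the fold, the score difference was 0.08 (SE 0.22).

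The other sites of FXR1 were in sgNS lists only. Site 5 (180982482 to 180982751) ended 2 bases from the RefSeq 3' end and was listed at 50.9-fold over 270 bases in replicate 1 and at 14.8-fold over 91 bases in replicate 2. Its -log10 p was 10.3 and 3.00, and by p its peak in replicate 2 ranked 10389th of 11038. With every list limited to its 9388 best peaks by p, site 5 was in replicate 1 of sgNS only, and with 50% reciprocal overlap its 2 peaks were not matched. Site 4 (180982033 to 180982242) was in replicate 1 of sgNS at 12.3-fold, and sites 1 and 3 were in replicate 2 of sgNS at 2.04-fold and 3.84-fold. By fold, the strongest peak of the gene therefore lay at site 5 in both sgNS lists and at site 2 in both sgMETTL1 lists. By -log10 p, site 2 led in both sgNS lists too, at 36.2 and 15.3 against 10.3 and 3.00 at site 5. A value per gene, 50.9 and 14.8 against 48.8 and 50, joins folds from different places.

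Some folds of FXR1 were also coarse. In each list, 12.7 to 14.6% of all folds were whole multiples, within the rounding of 3 digits, of a common step (2.315 and 2.113 under sgNS, 3.048 and 2.776 under sgMETTL1). For a step 7% larger the share was 0.921 to 1.5%. Each step had been picked in its own list for the largest share of whole multiples, so some excess over other steps follows from that choice. Of the 82 peaks of the 9 transcripts, 4 stood at whole steps, and all 4 were FXR1 peaks. They were site 5 in both sgNS lists, at 22.0 and 7 steps, and site 2 in both sgMETTL1 lists, at 16.0 and 18.0 steps. Site 2 in the sgNS lists stood at 8.08 and 3.93 steps, off the whole values. FXR1 sites 1, 3 and 4 were off them too, at 0.966, 1.82 and 5.31 steps. The part of this coarseness in the difference at site 2 was not tested.

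**Figure D2:**
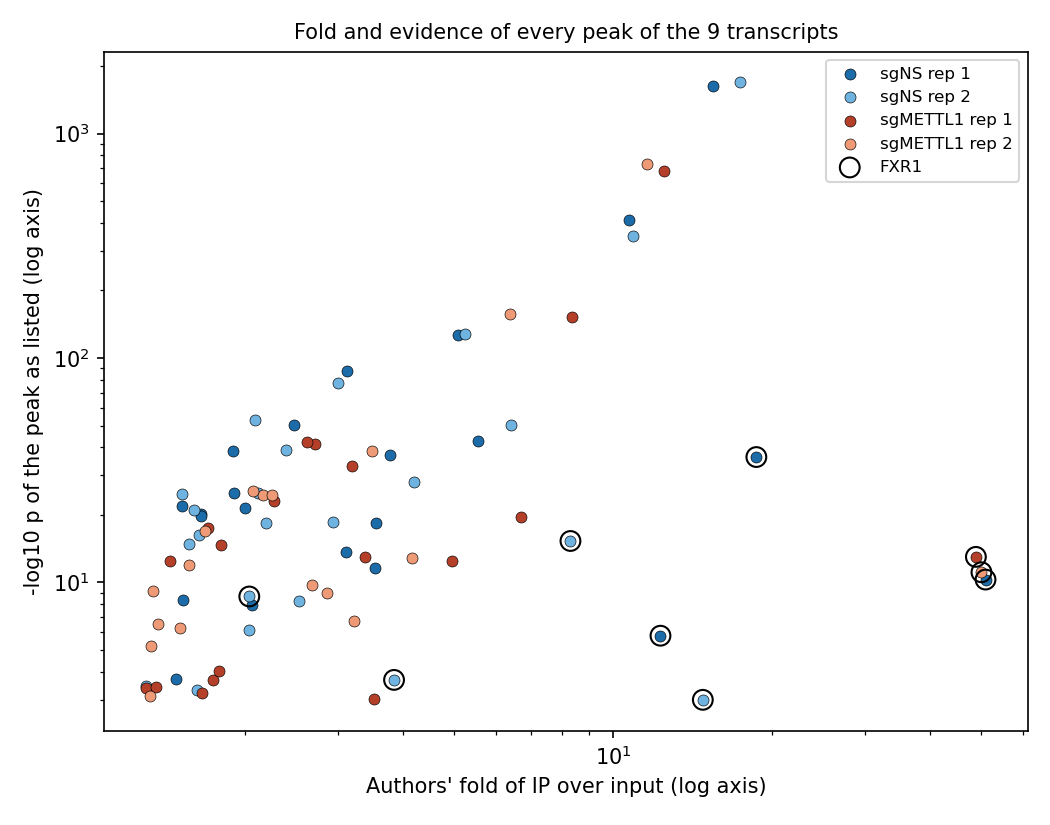
Each point is 1 of the 82 peaks of the 9 transcripts, with the authors' fold on the x axis and the listed -log10 p on the y axis (both log axes), coloured by list, and FXR1 peaks are circled. FXR1 peaks reach 48.8-fold to 50.9-fold at a -log10 p of 10.3 to 13.0, whereas YBX3 reaches 681 to 1690 at 11.6-fold to 17.4-fold.

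PRRC2C, a large proline-rich protein found in stress granules, held the most sites. All 6 lay on the plus strand of chromosome 1, from 60677 bases upstream up to the RefSeq 3' end itself. Site 6 (171592763 to 171593511), which ends on the last base of the gene, was the main one at 10.7 and 10.9 times input in the sgNS lists, and at 8.35 and 6.36 times in the sgMETTL1 lists. Both sgMETTL1 folds were lower, while the borders hardly moved, with 749 bases in both sgNS and 719 in both sgMETTL1 lists. Its percentiles were 33.2 and 30.2 against 35.9 and 42.6 (score difference -0.20, SE 0.19, limma's adjusted p = 0.724). Both sgMETTL1 lists were lower by fold at 38.7% of all sites in all 4 lists, and by rank at 23.7%.

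Site 3 of PRRC2C (171566729 to 171575125) joined 4 exon blocks in every list, with 3.13-fold and 3.00-fold against 2.62-fold and 2.07-fold. Site 1 (171532535 to 171532834), the farthest from the 3' end, stood on the other side, at a fold of 2.00 and 2.12 under sgNS, against 2.72 and 2.17 under sgMETTL1, and its ranks did not overlap between the guides. Its score difference was 0.50 (SE 0.21, limma's adjusted p = 0.483). Both sgMETTL1 ranks were higher, as at 20.3% of all sites in all 4 lists, and so were both folds, as at 9.9%. Site 2 (171557478 to 171557897) was a single peak of 420 bases in both sgNS lists, at 3.77-fold and 2.94-fold. In replicate 1 of sgMETTL1 it was broken into peaks of 61 and 181 bases at 1.66-fold and 1.79-fold, and replicate 2 had none. Sites 4 and 5 near the 3' end had no peak in replicate 1 of sgMETTL1, and elsewhere their folds were 1.30 to 1.65. Sites of 1 transcript thus stood on either side between the guides, and a difference between sites was not tested.

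YBX3 encodes a cold-shock domain protein that binds and stabilises mRNAs. It held the best supported peak of the 9 transcripts. Site 1 on the minus strand of chromosome 12 (10699107 to 10704096) ends 18 bases from the RefSeq 3' end and was listed at folds of 15.5 and 17.4 (sgNS) and of 12.5 and 11.6 (sgMETTL1). Its -log10 p was 1620 and 1690 against 681 and 731, among the best 1.56 to 2.01% of sites in every list. The peak joined 4 exon blocks in both sgNS lists and 3 in both sgMETTL1 lists, without the block farthest upstream. By rank of the fold it stood at percentiles of 23.7 and 19.1 against 24.1 and 24.1 (score difference -0.09, SE 0.18, limma's adjusted p = 0.885).

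Site 2 of YBX3 lay at the other end of the gene. It was the 1 site of the 25 that reached a RefSeq start, and it overran that start by 31 bases in both sgNS lists. It was listed at 1.90 and 2.09 times input in the sgNS lists, and at 1.70 and 1.68 times in the sgMETTL1 lists, so that both sgMETTL1 folds were lower. Its ranks overlapped, at percentiles of 96.6 and 93.4 under sgNS and 96.8 and 96.3 under sgMETTL1. Both sgMETTL1 lists were lower by fold at 38.7% of all sites in all 4 lists, and by bases covered at 49.1%. Site 2 covered 660 and 510 bases under sgNS but 240 and 300 under sgMETTL1, and its score difference was -0.15 (SE 0.20, limma's adjusted p = 0.816). A stretch of 252 bases of its exon block nearest the start could be read from RefSeq (GRCh38.p14, chr12:10722850-10723101, minus strand), because a start window of the opposite-strand gene LOC124902876 covers it. It is shown for how the borders of the site differed: capitals mark the 167 bases covered in all 4 lists, and lower case the bases that at least 1 sgMETTL1 list left out.
YBX3 site 2: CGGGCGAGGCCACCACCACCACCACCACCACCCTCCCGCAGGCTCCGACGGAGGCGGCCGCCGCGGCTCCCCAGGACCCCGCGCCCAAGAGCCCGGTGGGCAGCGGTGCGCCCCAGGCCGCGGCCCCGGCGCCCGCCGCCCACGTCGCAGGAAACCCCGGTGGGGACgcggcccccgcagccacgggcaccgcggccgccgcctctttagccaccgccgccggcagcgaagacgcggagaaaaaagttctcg
The stretch is 78.6% G and C, and the next 2 bases downstream are GT. It holds 0 matches on either strand to ACTAA, the core of the motif known for QKI proteins. Of the 35116 RefSeq start windows, 10.6% hold ACTAA on the strand of the gene and 19.0% on either strand in their first 252 bases. These letters are absent from this window, which says nothing about QKI7 there.

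DDX6, the helicase that represses and stores mRNAs in processing bodies, held a single site on the minus strand of chromosome 11 (118749799 to 118750278), 2036 bases from the RefSeq 3' end. Its folds differed little between the lists, at 2.48 and 2.39 under sgNS and 2.27 and 2.25 under sgMETTL1. Its percentiles of the fold were 90.1 in both sgNS lists and 89.8 and 87.6 in the sgMETTL1 lists. The score difference was 0.07 (SE 0.18, limma's adjusted p = 0.909), while on log2 folds it was -0.11 (SE 0.22).

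Across the 16 sites of all 4 lists, limma called 0 on the rank scores at a false discovery rate of 5%. The call rate over all 6003 sites was 0%, with a smallest adjusted p of 0.333. At an unadjusted p under 0.05 by limma stood 628 of all sites (10.5%). Of the 16 sites these were FXR1 site 2, G3BP1 site 1 and ATXN2L site 1. The rank score was lower under sgMETTL1 at 10 sites and higher at 6, with a median difference of -0.15 beside -0.02 over all sites, of which 51.9% were lower. Both sgMETTL1 ranks lay below both sgNS ranks at 7 of the 16 sites and above them at 5, where 23.7% and 20.3% of all sites did so. With 2 lists against 2, an exact permutation test cannot go below p = 0.333.

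**Figure D3:**
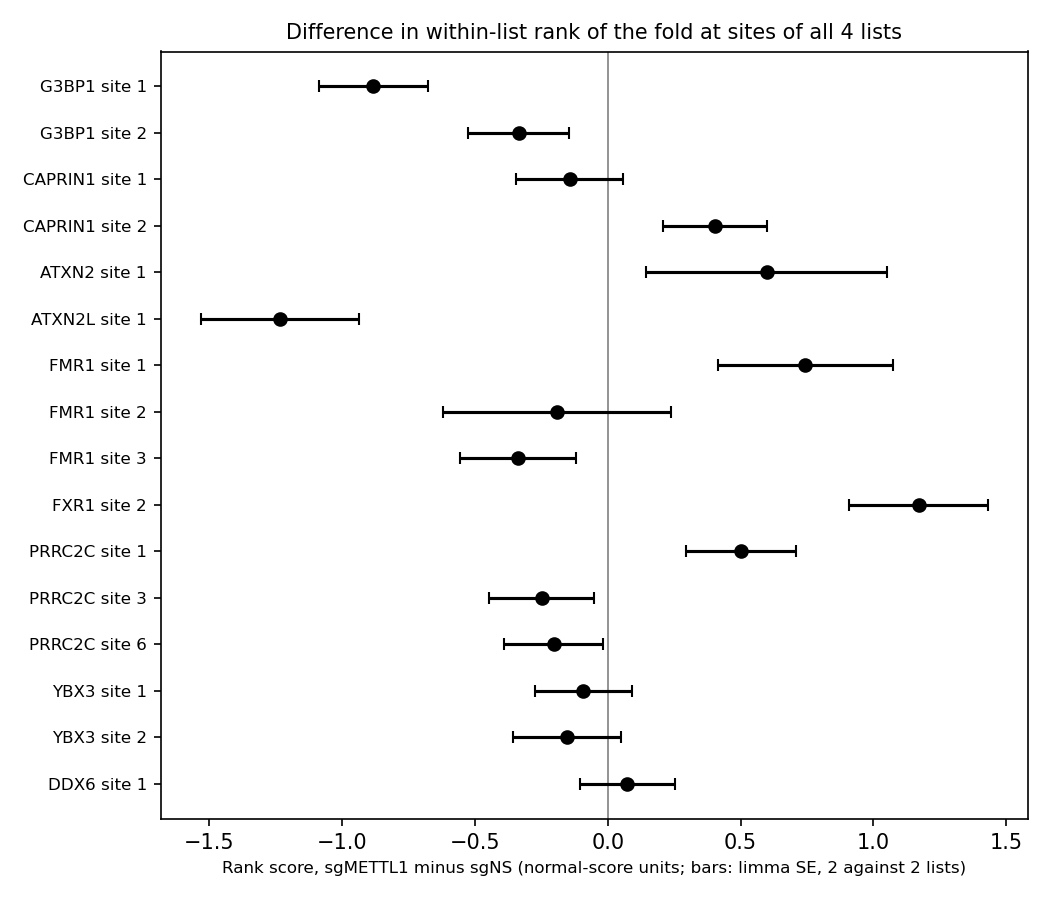
Points are the difference in rank score, sgMETTL1 minus sgNS, at the 16 sites of all 4 lists (normal-score units), and bars are limma's SE with 2 lists against 2. ATXN2L site 1 at -1.23 and FXR1 site 2 at 1.17 stand farthest from 0, and the adjusted p of both is 0.396.

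The median change per site in fold, -log10 p and covered bases was toward lower values under sgMETTL1, over all sites and over the 16. Both listed folds under sgMETTL1 lay below both under sgNS at 10 of the 16 sites and above them at 2, against 38.7% and 9.9% of all sites. On log2 folds the median difference was -0.28 at the 16 sites and -0.22 over all sites, and limma called 0 sites (792 at an unadjusted p under 0.05). The -log10 p was lower in both sgMETTL1 lists at 12 of the 16 sites, as at 76.2% of all sites, and higher in both at 0, as at 3.45%. The median ratio of -log10 p, sgMETTL1 over sgNS, was 0.444 at the 16 sites and 0.503 over all. Covered bases were fewer in both sgMETTL1 lists at 7 of the 16 sites and more at 1, against 49.1% and 4% of all sites, with a median ratio of 0.904 at the 16 sites and 0.85 over all. The part that sequencing depth has in this was not tested, since no read totals were used.

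**Figure D4:**
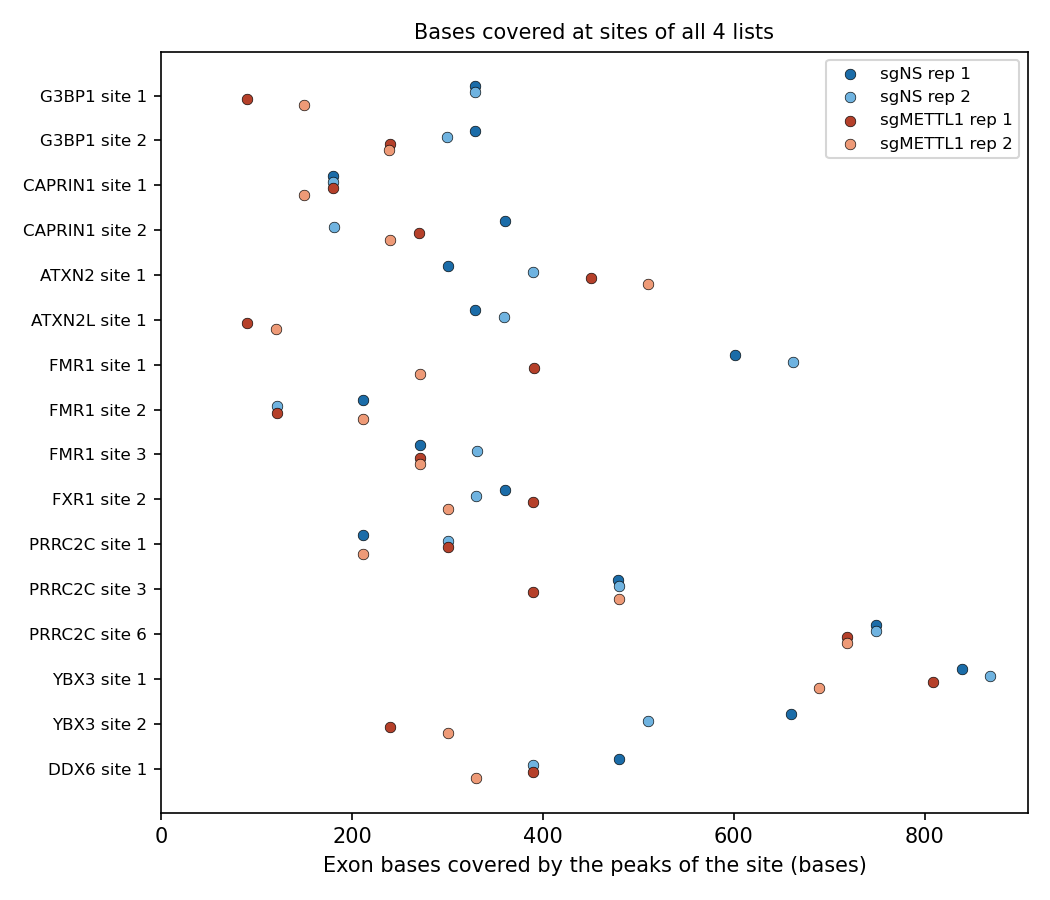
Points are the exon bases covered by the peaks of a site in each list, for the 16 sites of all 4 lists, coloured by list. At G3BP1 site 1, ATXN2L site 1 and YBX3 site 2 both sgMETTL1 lists cover fewer bases than both sgNS lists (90 and 150 against 329 and 329 for the first), and ATXN2 covers more.

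Other genes of the same biology were read from 5 lists with 62 genes in all. Of these, 21 had no peak in any list, 36 were in both lists of sgNS and 36 in both of sgMETTL1. Among all genes with any peak, a smaller denominator that leaves out genes such as those 21, the shares were 76.3% and 67.5%. Their 68 sites of all 4 lists had a lower rank score under sgMETTL1 at 37 and a higher one at 31, with a median of -0.04, and limma called 0 of them (10 at an unadjusted p under 0.05). By the mean percentile of the strongest fold of a gene, among the 4150 genes of all 4 lists, the median was 49.9 for these genes and 76.5 for the 9 core transcripts. Folds given below for these genes are likewise the strongest of a gene in each list. Those of the guides may come from different sites, and folds per gene were not tested for a difference.

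Of 7 paralogs of the core members, only CAPRIN2 had a peak, in all 4 lists, at a fold of 16.0 and 26.1 under sgNS, against 11.4 and 10.4 under sgMETTL1. G3BP2, FXR2, PRRC2A, PRRC2B, YBX1 and YBX2 had none in any list. Of 9 G3BP1 partners 4 were in all 4 lists, led by CYFIP1, which binds FMRP (17.1 and 11.3 against 9.14 and 6.68), and NUFIP2 (12.8 and 11.1 against 7.50 and 10.4).

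Among 24 other RNA-binding proteins of granules, 17 were in all 4 lists. ELAVL1, the mRNA stabiliser HuR, was among the highest ranked, at 55.7 and 116 against 67.6 and 50.4. Of 15 processing-body partners of DDX6, 8 were in all 4 lists, led by the decapping factor DCP1A (22.1 and 26.4 against 23.7 and 18.5). TNRC6C, a scaffold of miRNA silencing, followed at 65.4 and 98.9 against 19.0 and 6.35.

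The group of eIF2 alpha, its kinases, which set off the translation arrest, and its phosphatase subunits, which end it, held 7 genes with 5 in all 4 lists. EIF2AK1 ranked highest (64.5 and 51.4 against 93.0 and 41.7), then EIF2AK3, the kinase PERK (30.1 and 27.5 against 30.5 and 22.6). EIF2S1, which encodes eIF2 alpha itself, was in both sgNS lists only, at 6.94-fold and 6.89-fold. PPP1R15A, the stress-induced phosphatase subunit GADD34, was in both sgMETTL1 lists only, at 3.41-fold and 2.41-fold. They were the only genes of the 62 with either pattern, which 4.63% (sgNS only) and 1.52% (sgMETTL1 only) of all genes with any peak showed.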

How the data were processed

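RNA immunoprecipitation was sequenced for 8 HepG2 samples, grouped by their titles. Per the labels' protocols, cells were UV cross-linked and sonicated, ribosomal RNA was removed and stranded libraries were made. GRCh38 and STAR are named per the submitters' processing notes; how peaks were called, scaled and thresholded was not stated in any source used. Each IP and its input gave 1 deposited list, so replicates were not pooled. The fold ratio and the p-value of each peak are as deposited by the authors. The log10 values of p and FDR, treated as a score, are likewise the deposited ones. Read depth is unknown, so no intervals on counts are given.

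Peaks of 1 gene name and strand sharing at least 1 exon base were joined into sites, and a site's value in a list was its strongest fold. At the 6003 sites of all 4 lists, ranks within a list were turned into normal scores, and the 2 lists of each guide were compared by limma 3.58.1 (R 4.3.3; two-sided, Benjamini-Hochberg over all sites). Positions are 1-based; 3' ends and starts are those of RefSeq genes of GRCh38.p14. Site matching and the fit were tested on simulated data (Python 3.11.15, pandas 2.3.3, numpy 2.4.6, scipy 1.17.1, matplotlib 3.10.9). The members, the gene lists and the use of ranks were chosen with earlier results of these data known. Named are the 9 members, METTL1, WDR4 and QKI, and from each other list the genes in both lists of 1 guide only and the 2 with the best mean rank. Some genes that this rule takes are not reported here. Genes without a peak, and some markers, were named after their values were seen. The step in the folds was fitted to each list. Alternatives were 50% reciprocal overlap, equal numbers of peaks, folds no less than 2 times the smallest in a list, log2 folds, ranks by p, the mean of a site's peaks, the replicate number as a block and leaving out each list.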

Additional observations from a re-analysis of the deposited data

How the results depend on the processing

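Under every alternative tried limma called 0 sites, and smallest adjusted p-values ran from 0.137 (ranks by p) to 0.568 (without replicate 2 of sgNS). With the replicate number as a replicate block the count was 0 as well, with a smallest adjusted p of 0.484, and the block changed no call. Deviations of same-numbered lists correlated at -0.000892 over sites, so the numbers show no pairing. A score difference exists only where a site was in all lists used. ATXN2L site 1 and G3BP1 site 1 had none with reciprocal overlap. With a fold of at least 2 times the minimum, 7 of the 16 sites had one. With the replicate block every difference equals the main one by design, so its sign could not turn. Of 165 score differences of the 16 sites under alternatives, those with the block included, 159 kept their sign. The 6 that turned were DDX6 at -0.37 with a fold of at least 2 times the minimum, -0.11 on log2 folds and -0.02 without replicate 2 of sgMETTL1, CAPRIN1 site 1 at 0.0047 on ranks by p, and FMR1 site 2 at 0.21 without replicate 1 of sgNS and 0.26 without replicate 1 of sgMETTL1. When each list was left out, DDX6 ranged from -0.0191 to 0.104 and FMR1 site 2 from -0.6803 to 0.2558. FXR1 site 2 stayed at 0.86 to 1.47 then, with the lone list of a guide assumed to vary like the other guide.

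Site counts moved more. With 50% reciprocal overlap, 14 sites were in all 4 lists, 4 in both sgNS lists only (ATXN2L, G3BP1 site 1 and PRRC2C sites 2 and 4, whose sgMETTL1 peaks were shorter) and 1 in both sgMETTL1 lists only, the shorter ATXN2L peak; FXR1 site 5 was then not matched between the sgNS lists. With a fold of at least 2 times the minimum, 7 sites were in all 4 lists and 3 in both sgNS lists only. With equal numbers of peaks, 0 were in both sgNS lists only. Leaving out each list gave 16 to 18 sites in all lists left, 2 to 4 in the sgNS lists only and 0 to 1 in the sgMETTL1 lists only. Counts of the 62 other genes stayed at 30 to 38.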
